A study of Mus musculus with 6 samples.

Results

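The heart field transcription factors *Gata4*, *Gata5*, *Gata6*, *Hand1*, *Hand2*, *Nkx2-5*, *Isl1* and *Mef2c* were examined in sorted cells of the mouse aortic root and ascending aorta. These 8 genes were chosen by name, and all 8 have a row among the 24421 gene rows of the expression matrix. Cells were taken at 8 weeks of age from mice of the 129S6/SvEv strain. All mice carried a conditional *CAG-Sun1/sfGFP* tracer allele, which puts GFP on the nuclear envelope once Cre has acted. In the secondary heart field (SHF) group the Cre allele was Mef2cSHF, and in the cardiac neural crest (CNC) group it was *Wnt1-Cre2*, with 3 libraries in each group and no other mutation named in the labels. Living GFP+ cells were sorted, so each library holds whatever cell types descend from cells in which that Cre was once active, and the libraries of a group are biological replicates by the study's account, though the labels do not say whether each came from 1 animal or from a pool. The RNA was amplified by the SmartSeq2 protocol, and gene levels were deposited as TPM, the number of transcripts of a gene in 1000000 transcripts, which is corrected for gene length. The question is which of the factors that pattern the embryonic heart fields are still transcribed in adult aortic cells of each origin, and whether their levels differ between the SHF-derived and the CNC-derived cells.

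GATA4, GATA5 and GATA6 are zinc finger proteins that bind the GATA motif and act together with other cardiac factors, among them NKX2-5, a homeodomain protein, and MEF2C, a MADS-box protein. HAND1 and HAND2 are basic helix-loop-helix proteins that bind E-boxes as partners of E proteins. ISL1, a LIM homeodomain protein, marks progenitors of the secondary heart field and is lost as they differentiate, whereas *Mef2c* is switched on there by ISL1 and GATA factors through an enhancer, and DNA of *Mef2c* is what directs Cre to this field. In the outflow tract *Gata6* acts in smooth muscle and neural crest derivatives and *Hand2* in both the heart fields and the crest.

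TPM does not retain how deeply a library was sequenced. The depth is unknown here, and a value of 0 is given here as listed at 0 and not as absence. Between 9255 and 11858 rows were above 0 in a library, and of 6622 genes with a mean of 5 to 50 TPM, the range that holds the means of *Gata4*, *Gata6*, *Hand2* and *Mef2c*, 50.1% were listed at 0 in some library. Summed fibroblast markers were above summed smooth muscle markers in all 6 libraries, at 29221 to 54798 TPM for 10 genes against 1425 to 3270 TPM for 12 genes. The fibroblast list was led by *Dcn*, at 11604 to 14863 TPM, and *Col3a1*, at 6770 to 17544 TPM, and the smooth muscle list by *Myl9*, at 466 to 987 TPM, and *Acta2*, at 363 to 956 TPM. The Y-linked *Ddx3y* and *Eif2s3y* were above 0 in SHF replicate 1 and in the 3 CNC replicates and listed at 0 in SHF replicates 2 and 3, where *Xist* was at 51.95 and 38.76 TPM. Sex and lineage are therefore partly confounded. In bulk libraries, fewer cells of a type and less RNA per cell cannot be told apart. The 10185 genes that reached 1 TPM in 3 or more libraries were tested with limma on log2(TPM + 1), a scale that understates the change of low genes, and differences are SHF minus CNC. An exact permutation test of 3 libraries against 3, two-sided, has 0.1 as its smallest p. Where 3 values are given for a lineage, they are in the order of replicates 1, 2 and 3.

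Of the 8 factors, *Gata6*, *Hand2* and *Mef2c* were above 0 in all 6 libraries and *Gata4* in 5 of the 6. *Isl1* was above 0 in 2 libraries and *Nkx2-5* in 1, and *Gata5* and *Hand1* were listed at 0 throughout. The order of mean levels differed between the groups. In SHF libraries *Gata4* came first and its libraries did not overlap those of *Mef2c*, which came next, whereas the libraries of *Mef2c*, *Gata6* and *Hand2* overlapped each other in turn. In CNC libraries *Gata6* had the highest mean, followed by *Mef2c*, *Hand2* and *Gata4*, and each of these overlapped the next. No factor differed between the lineages past an adjusted p of 0.05 in limma, and among all genes tested 0 did (0.0%), while 597 (5.86%) had an unadjusted p under 0.05 and 1 gene passed with a pseudocount of 5. Of the 4 factors that passed the filter on low values, 1 had an unadjusted p under 0.05, and this was *Gata4*, higher in SHF libraries, as were 2.69% of all genes tested by the same measure. Of the 4, 3 had a difference above 0, beside 51.2% of all genes tested.

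**Figure D1:**
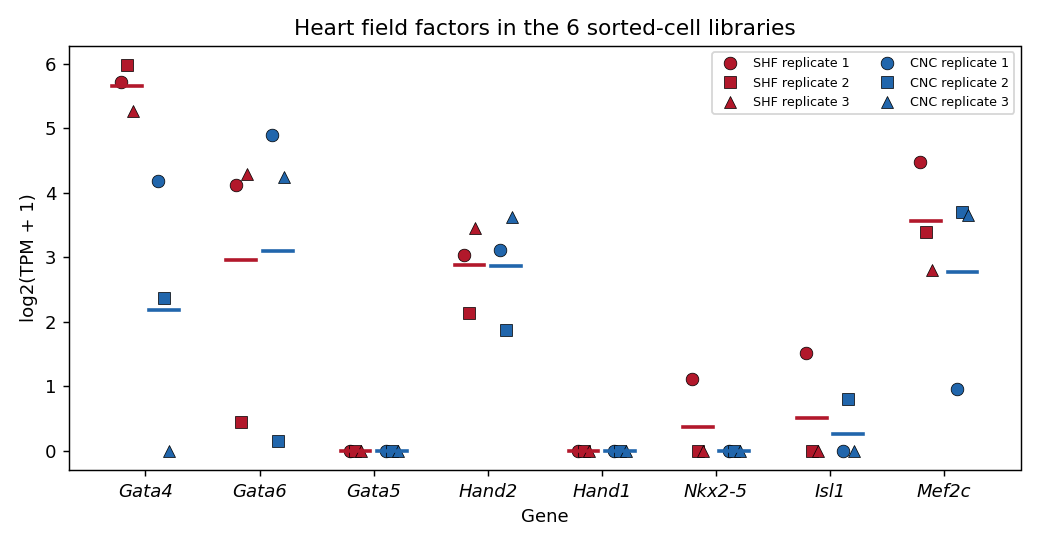
Levels of the 8 factors as log2(TPM + 1) in the SHF libraries (red) and CNC libraries (blue), with a symbol for each replicate and a bar at the lineage mean. *Gata4* is the factor whose 3 SHF libraries all lie above its 3 CNC libraries, and *Gata6* and *Hand2* are lowest in replicate 2 of both lineages.

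*Gata4*, a GATA factor of cardiac muscle, endocardium and their progenitors, lies on the minus strand of chromosome 14 of GRCm38 from 63198922 to 63271692. Its level was 51.54, 61.92 and 37.69 TPM in the SHF libraries. In CNC replicates 1 and 2 it was at 17.22 and 4.16 TPM, and in CNC replicate 3 it was listed at 0. All SHF libraries were above all CNC libraries, and the lowest SHF library was 2.19 times the highest CNC library. The mean level was 50.4 ± 12.2 TPM (SD, n = 3) in SHF libraries. The difference in mean log2(TPM + 1) was 3.47 ± 1.21 (SE), with a 95% interval from 0.81 to 6.13. The adjusted p was 0.694 in limma with Benjamini-Hochberg adjustment, the unadjusted p was 0.0153, and the exact two-sided permutation p was 0.1, the smallest this design allows. Of all genes tested, 223 had a smaller unadjusted p, and in 6.11% every SHF library was above every CNC library. The value listed at 0 bears on the size, and without CNC replicate 3 the difference was 2.38. SHF replicate 1 is the SHF library with Y-linked transcripts. In a fit of it and the 3 CNC libraries, added after the values were seen, the difference was 3.53, which rests on 1 SHF library. The part of sex in the *Gata4* values was not tested.

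Of the cardiomyocyte, endothelial and mesothelial markers, cell types in which *Gata4* is known to be active, 0 passed the threshold, and each list's summed level is given here beside *Gata4*. The 10 cardiomyocyte markers summed to 87.44 to 117 TPM in SHF libraries and 0 to 37.89 TPM in CNC libraries, with *Myl2* and *Myl7* listed at 0 in all 6 libraries. In SHF replicate 2, which had the highest *Gata4*, the cardiomyocyte genes *Myh6*, *Actc1* and *Tnni3* were listed at 0 and *Tnnt2* alone, at 87.44 TPM, made up the sum. That library also had the fewest rows above 0, at 9255. In SHF replicates 1 and 3 *Myh6* was at 24.23 and 26.73 TPM and *Actc1* at 42.14 and 28.19 TPM, and both were listed at 0 in every CNC library. *Tnni3* was above 0 in SHF replicate 1 and CNC replicate 1 only, at 13.34 and 15.61 TPM. The 10 endothelial markers summed to 89.5 to 591 TPM in SHF libraries and 37.65 to 60.96 TPM in CNC libraries, where *Emcn* and *Cdh5* were listed at 0 in all 3. *Pecam1*, the endothelial marker with the highest mean, was above 0 in every library, at 31.45, 148 and 142 TPM in SHF and 9.72, 37.86 and 19.81 TPM in CNC libraries. *Tek* overlapped, at 31.58, 0 and 57.25 TPM in SHF and 36.71, 23.1 and 1.11 TPM in CNC libraries, with a log2 difference near 0. Of the 7 endothelial markers tested, 6 had a difference above 0, beside 51.2% of all genes tested, but *Emcn* and *Cdh5* passed the filter through the SHF libraries alone. The endothelial sums were 89.5, 591 and 525 TPM in the SHF libraries, where *Gata4* was at 51.54, 61.92 and 37.69 TPM. Of 9 mesothelial markers analysed, *Upk1b*, *Msln* and *Lrrn4* were listed at 0 in all libraries, and *Upk3b*, *Wt1*, *Krt19* and *Krt8* were at 0 in SHF replicates 1 and 2. In SHF replicate 3 the latter were at 31.6, 8.69, 26.4 and 21.61 TPM. Among the CNC libraries, *Krt19* and *Krt8* were at 10.66 and 15.79 TPM in replicate 1 and *Upk3b* at 0.63 TPM in replicate 3. The sum of the 9, 238 to 619 TPM in SHF and 53.15 to 106 TPM in CNC libraries, was mostly *Tcf21*, a factor that epicardium-derived fibroblasts also express, and the sums of the other 8 overlapped between the groups. *Tcf21* was at 295, 238 and 531 TPM in the SHF libraries and at 57.62, 106 and 47.98 TPM in the CNC libraries, without overlap. The summed fibroblast markers went the other way, with 29221 to 32484 TPM in SHF libraries and 40269 to 54798 TPM in CNC libraries. Of these 10 markers, 6 were higher in every CNC library, beside 5.68% of all genes tested, and the collagen genes *Col1a1*, *Col1a2* and *Col3a1* were among them. *Dcn*, *Lum*, *Pdgfra* and *Dpt* overlapped between the groups, so the sum does not give the fibroblast content. The part of these cell types in the *Gata4* values was not tested.

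**Figure D2:**
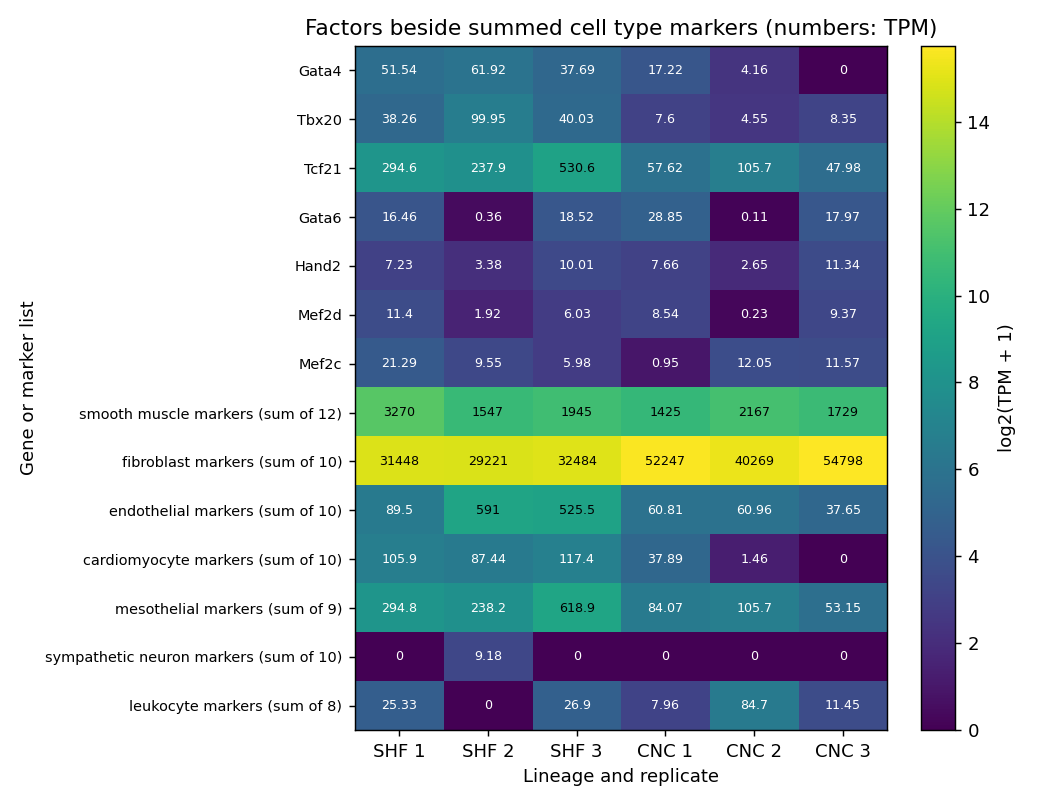
Levels in TPM, printed in each square and coloured by log2(TPM + 1), of the detected factors, of *Tbx20*, *Tcf21* and *Mef2d*, and of summed cell type markers, with a column for each library. *Gata4*, *Tbx20* and *Tcf21* are higher in each SHF library than in any CNC library, and the fibroblast sum is lower.

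*Gata6*, on the plus strand of chromosome 18 from 11052064 to 11085635, did not follow *Gata4*. Its level was 16.46, 0.36 and 18.52 TPM in the SHF libraries and 28.85, 0.11 and 17.97 TPM in the CNC libraries. The groups overlapped, and replicate 2 of each lineage was lowest by far. The means were 11.8 ± 9.94 TPM in SHF and 15.6 ± 14.5 TPM in CNC libraries (SD, n = 3 each), and the difference in mean log2(TPM + 1) was -0.15 ± 1.64 (SE), with a 95% interval from -3.77 to 3.47 and an adjusted p of 0.997 in limma. The interval leaves room for a large difference in either direction. Exons of *Gata6* overlap those of *1010001N08Rik*, a noncoding transcript of the opposite strand, and SmartSeq2 reads carry no strand, so reads in the overlap cannot be told apart. *1010001N08Rik* was at 17.7, 10.05 and 29.66 TPM in the SHF libraries and at 20.38, 7.12 and 13.83 TPM in the CNC libraries. It too had its lowest values in SHF replicate 2 and CNC replicate 2. *Gata5*, on chromosome 2 from 180325133 to 180334699, which acts in the endocardium, was listed at 0 in every library, as was its antisense transcript *Gata5os*.

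The balance of *Gata4* and *Gata6*, which bind the same motif, varied from library to library. *Gata4* made up 75.8%, 99.4% and 67.0% of the summed *Gata4*, *Gata5* and *Gata6* TPM in the SHF libraries. In the CNC libraries it made up 37.4%, 97.4% and 0%, with *Gata6* the remainder, at 62.6%, 2.58% and 100%. The mean share of *Gata4* was 80.8% ± 16.8 (SD, n = 3) in SHF and 44.9% ± 49.2 (SD, n = 3) in CNC libraries, and the groups overlapped through CNC replicate 2, in which the 3 genes summed to 4.27 TPM. The exact two-sided permutation p was 0.3, or 0.6 with Benjamini-Hochberg adjustment over the 4 shares compared. Among these 4, the *Gata6* share mirrors that of *Gata4*, and the *Hand2* share of its pair was 100% in every library, so neither adds a separate comparison. Of the other GATA genes, which serve blood and neural lineages, *Gata1* was listed at 0 throughout, *Gata2* reached 0.07 TPM, and *Gata3* reached 5.26 TPM in SHF replicate 1, 41.74 TPM in SHF replicate 2 and 3.72 TPM in CNC replicate 3.

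**Figure D3:**
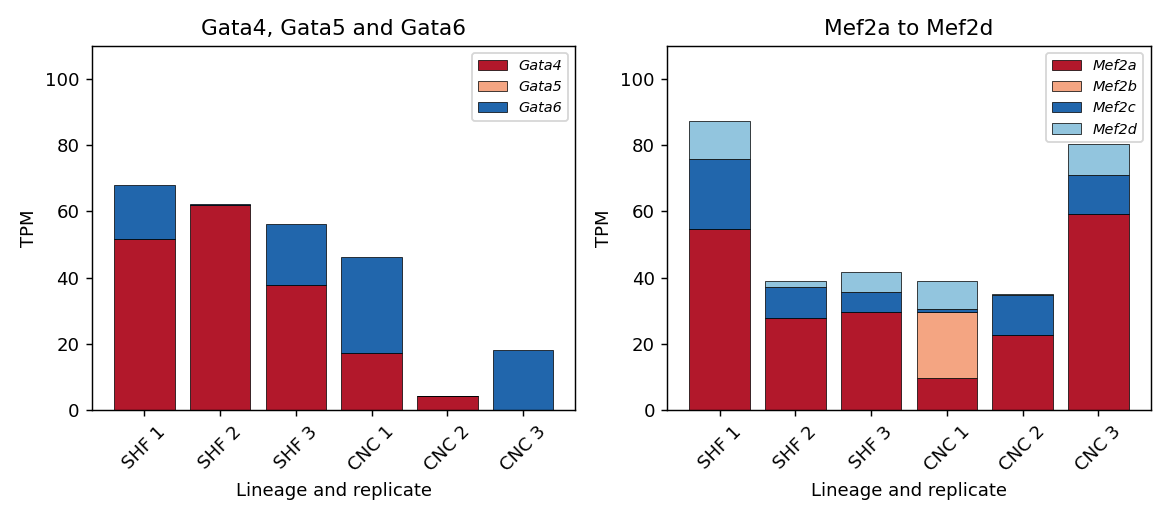
Stacked bars of TPM for *Gata4*, *Gata5* and *Gata6* (left) and for the MEF2 genes (right) in each library. *Gata4* is the largest part of the GATA bar in the SHF libraries and CNC replicate 2 and *Gata6* in CNC replicates 1 and 3, and *Mef2a* is the largest part of the MEF2 bar in all libraries but CNC replicate 1, where *Mef2b* is.

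*Hand2*, on the plus strand of chromosome 8 from 57320983 to 57324633, was low in both lineages and above 0 in every library. Its level was 7.23, 3.38 and 10.01 TPM in the SHF libraries and 7.66, 2.65 and 11.34 TPM in the CNC libraries. The range of the SHF libraries lay within that of the CNC libraries, with means of 6.87 ± 3.33 TPM in SHF and 7.22 ± 4.36 TPM in CNC libraries (SD, n = 3 each). The difference in mean log2(TPM + 1) was 0.01 ± 1.23 (SE), with a 95% interval from -2.69 to 2.71 and an adjusted p of 0.999 in limma. *Hand1*, on chromosome 11 from 57828705 to 57832818, was listed at 0 in every library, so that *Hand2* was 100% of the pair throughout. Exons of *Hand2* overlap those of *Hand2os1* on the opposite strand, which was not analysed here. As for *Gata6*, the lowest values of *Hand2* were in SHF replicate 2 and CNC replicate 2, and the same was true of *Mef2d* and of 7.37% of all genes tested. The 10 markers of sympathetic neurons, in which *Hand2* and *Gata3* are known to act, *Th* among them, were listed at 0 in all libraries apart from *Elavl4*, at 9.18 TPM in SHF replicate 2.

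The windows of 250 bases before the RefSeq start (GRCm38.p6) are shown for *Hand2* and *Mef2c*, factors with reads in every library, and for *Gata5*, listed at 0 in every library. RefSeq windows were matched for 5 of the 8 factors, *Gata5*, *Hand2*, *Mef2c*, *Isl1* and *Nkx2-5*. Capitals mark matches on either strand to the GATA box AGATAA (also with T as its first letter, with G as its last letter, or with both), to the E-box CANNTG and to the letters CACTT of the NKX2-5 site, which overlap an E-box in both windows that hold them. The MEF2 site was searched too and was in none of the 3 windows.
Hand2, chr8:57320733-57320982, plus strand: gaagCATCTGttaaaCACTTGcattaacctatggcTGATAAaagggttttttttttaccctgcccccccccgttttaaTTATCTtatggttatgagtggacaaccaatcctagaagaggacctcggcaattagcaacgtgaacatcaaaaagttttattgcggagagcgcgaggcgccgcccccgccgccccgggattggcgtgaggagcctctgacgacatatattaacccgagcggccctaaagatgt
Mef2c, chr13:83503784-83504033, plus strand: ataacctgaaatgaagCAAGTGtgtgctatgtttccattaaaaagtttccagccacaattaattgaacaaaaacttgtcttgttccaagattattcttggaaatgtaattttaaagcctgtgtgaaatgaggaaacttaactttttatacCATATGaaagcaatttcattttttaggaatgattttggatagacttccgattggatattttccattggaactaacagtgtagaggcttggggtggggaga
Gata5, chr2:180334680-180334929, minus strand: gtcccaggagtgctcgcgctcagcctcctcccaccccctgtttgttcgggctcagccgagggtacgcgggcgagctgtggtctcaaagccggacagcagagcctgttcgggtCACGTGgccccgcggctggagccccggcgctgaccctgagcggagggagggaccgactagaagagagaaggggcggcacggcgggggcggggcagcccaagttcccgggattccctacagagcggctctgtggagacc
The *Hand2* window held 2 GATA boxes, 2 E-boxes and 1 CACTT, the *Mef2c* window 2 E-boxes and 1 CACTT, and the *Gata5* window 1 E-box. Of 32851 windows of the same length, 26.5% held a GATA box of any of these forms, 66.2% an E-box, 40.7% CACTT and 3.20% the MEF2 site. The *Gata5* window was 70.0% G or C with 22 CpG, that of *Hand2* 49.2% with 15 and that of *Mef2c* 33.6% with 1, against medians of 52.4% and 6 over all windows. *Mef2c* has 2 further starts, and gene-level TPM does not say which was used. These matches describe the letters and not binding.

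*Mef2c*, on the plus strand of chromosome 13 from 83504034 to 83667080, was detected in both lineages. Its level was 21.29, 9.55 and 5.98 TPM in the SHF libraries and 0.95, 12.05 and 11.57 TPM in the CNC libraries. The highest library was an SHF library and the lowest a CNC library, but CNC replicates 2 and 3 were above SHF replicates 2 and 3. The means were 12.3 ± 8.01 TPM in SHF and 8.19 ± 6.28 TPM in CNC libraries (SD, n = 3 each). The difference in mean log2(TPM + 1) was 0.79 ± 1.30 (SE), with a 95% interval from -2.06 to 3.64 and an adjusted p of 0.935 in limma, and it was -0.12 without CNC replicate 1. The libraries of the lineages thus overlapped in adult *Mef2c* RNA, the gene whose DNA directs the Cre of the SHF group in the embryo.

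Within the MEF2 family *Mef2c* was below *Mef2a* in every library, and its mean TPM was above those of *Mef2d* and *Mef2b*. It made up 24.4%, 24.4% and 14.4% of the summed MEF2 TPM in the SHF libraries and 2.43%, 34.4% and 14.4% in the CNC libraries. The exact two-sided permutation p of the share was 0.7, or 0.933 with Benjamini-Hochberg adjustment. *Mef2a*, which is expressed broadly, was at 54.68, 27.63 and 29.63 TPM in the SHF libraries and 9.75, 22.78 and 59.3 TPM in the CNC libraries. *Mef2d* was at 0.23 to 11.4 TPM. *Mef2b* was at 19.77 TPM in CNC replicate 1, the library with the lowest *Mef2c* and *Mef2a*, and was listed at 0 in the other libraries.

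The progenitor factors were near or at 0. *Isl1*, on the minus strand of chromosome 13 from 116298281 to 116309689, reached 1.86 TPM in replicate 1 of the SHF group and 0.74 TPM in replicate 2 of the CNC group and was listed at 0 in the other 4 libraries. *Nkx2-5*, on the minus strand of chromosome 17 from 26838664 to 26845009, was at 1.16 TPM in SHF replicate 1 and listed at 0 in the other 5. Neither reached 1 TPM in 3 libraries, and neither was tested across genes. SHF replicate 1, with reads of both, was the library with the most rows above 0.

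Other genes of the heart fields were taken from a list of 20. Of these, 3 were listed at 0 in all libraries, 7 were tested, and 0 passed the threshold in either direction. The median log2 difference of the 7 was 0.19, beside 0.02 over all genes tested. It had no stable sign, with -0.13 without SHF replicate 1, 1.07 without SHF replicate 2 and -0.49 with a mean of at least 5 TPM as the filter. *Tbx20*, a T-box factor that works with GATA4 and NKX2-5, was at 38.26, 99.95 and 40.03 TPM in the SHF libraries and at 7.6, 4.55 and 8.35 TPM in the CNC libraries. The lowest SHF library of *Tbx20* was 4.58 times the highest CNC library, and the log2 difference was 2.84 ± 0.88 (SE), with an adjusted p of 0.629 in limma. *Osr1*, a zinc finger factor of lateral plate mesoderm, was the reverse, at 80.78, 130 and 64.88 TPM in the SHF libraries and 239, 241 and 309 TPM in the CNC libraries. Its log2 difference was -1.56 ± 0.40 (SE), with an adjusted p of 0.482 in limma. *Bmp4*, a ligand upstream of several of these factors, overlapped between lineages, at 18.8 to 66.17 TPM in SHF and 5.58 to 131 TPM in CNC libraries. Of the 7 tested genes of the list, 1 was higher in every SHF library and 1 in every CNC library, beside 6.11% and 5.68% of all genes tested. *Foxf1*, which was not tested, was at 0.84, 2.25 and 0.15 TPM in the CNC libraries and at 0.08 TPM or 0 in the SHF libraries.

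**Figure D4:**
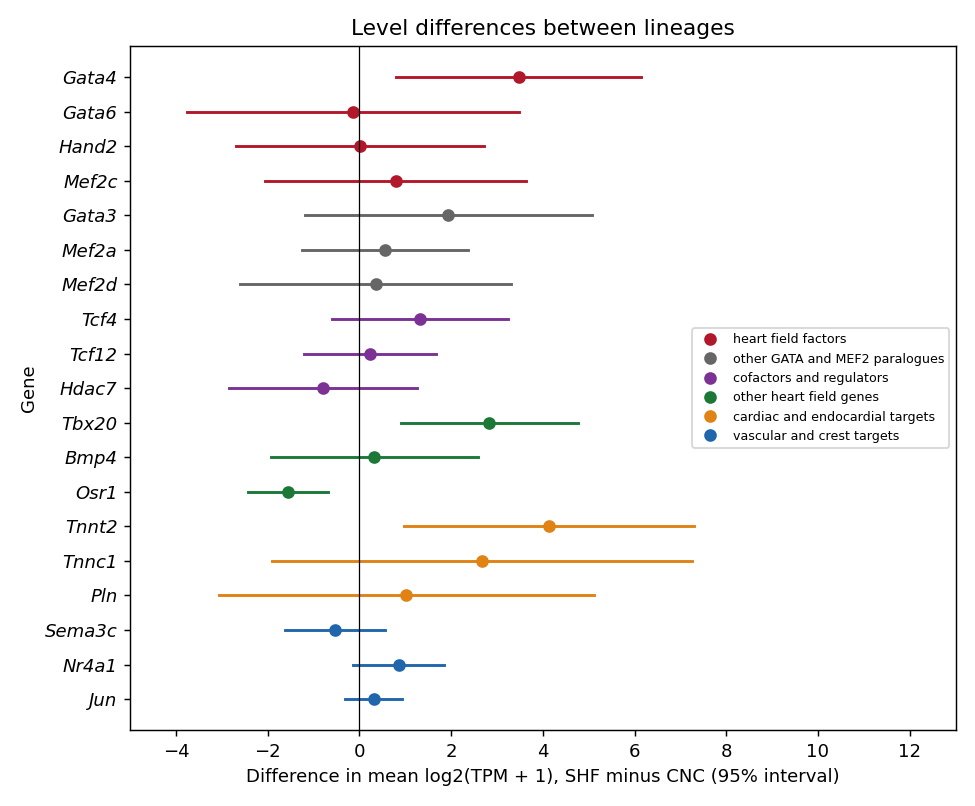
Difference in mean log2(TPM + 1), SHF minus CNC, with its 95% interval from limma, for the tested factors and the named genes of the related lists. Intervals of *Gata4*, *Tbx20*, *Osr1* and *Tnnt2* do not include 0 before adjustment, and no adjusted p was under 0.05. *Gja5* and *Myl3*, at 0 in every CNC library, are not drawn.

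Known targets of these factors in heart muscle and endocardium ranged from 0 in all libraries, for 3 of the 16, to 111 TPM, for *Tnnc1* in SHF replicate 3. Of the 16, 6 were tested and 0 passed the threshold. *Myl3* and *Gja5* passed the filter on low values through the SHF libraries alone, so no direction is counted over the 6. *Myl3*, a myosin light chain, was at 44.86, 6.54 and 34.88 TPM in the SHF libraries and listed at 0 in the CNC libraries. *Gja5*, the connexin of conduction tissue and arterial endothelium, was at 4.85, 3.44 and 20.77 TPM in the SHF libraries and likewise listed at 0 in the CNC libraries. *Tnnt2*, the cardiac troponin T, was at 21.49, 87.44 and 60.93 TPM in the SHF libraries and at 22.06, 0 and 0 TPM in the CNC libraries. *Tnnc1* and *Pln* overlapped, and both were listed at 0 in CNC replicates 2 and 3 and in SHF replicate 2, the library with the most *Gata4* and the fewest rows above 0. *Nppa*, a classical target of GATA4 and NKX2-5, was at 2.58 TPM in SHF replicate 1, the library with *Nkx2-5* reads, and at 0 elsewhere. *Nppb* was listed at 0 throughout. Several of these genes are also in the cardiomyocyte list whose sums are given above.

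Targets in vessels and crest ranged from *Dbh*, listed at 0 in all libraries, to *Nr4a1*, at 422 TPM or more in each. Of 10, 9 were tested, 7 with a log2 difference above 0 and 2 below, beside 51.2% above 0 among all genes tested, and 0 passed the threshold. The median was 0.34, falling to 0.07 when SHF replicate 3 was left out and rising to 0.72 when SHF replicate 2 was. *Sema3c*, a guidance cue of the outflow tract that GATA6 is known to activate, was at 144, 89.23 and 127 TPM in the SHF libraries and 323, 174 and 88.82 TPM in the CNC libraries. *Nr4a1* and *Jun*, immediate early genes that MEF2 factors can drive, were at 422 to 1916 TPM and 402 to 694 TPM over the 6 libraries, with adjusted p-values of 0.874 and 0.896 in limma.

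Cofactors of the heart field factors were detected in part. Of 21, 18 were tested, 10 with a log2 difference above 0 and 8 below, and 0 passed the threshold. The median of 0.06 had no stable sign, with -0.33 without CNC replicate 1, 0.11 without SHF replicate 2 and -0.34 with a mean of at least 5 TPM as the filter. The E proteins *Tcf12* and *Tcf4*, partners of HAND2, were at 27.37 to 69.59 TPM and 8 to 103 TPM over the 6 libraries. The class II deacetylase *Hdac7*, which represses MEF2 factors, was at 4.4 to 42 TPM. The FOG protein gene *Zfpm2*, whose product binds GATA4, was at 20.4, 16.12 and 0.34 TPM in the SHF libraries and 3.05, 0.6 and 18.02 TPM in the CNC libraries, and its relative *Zfpm1* had 2.11 TPM in SHF replicate 1, 2.92 TPM in SHF replicate 2 and 0 elsewhere. *Smyd1* and *Hopx*, both active in cardiac muscle, were listed at 0 in all libraries.

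The genes most like the 3 factors detected in all libraries were found by Pearson's r of log2(TPM + 1) over the 6 libraries among 6274 genes. These r values rest on 6 points from the same libraries, and they are a description only. For *Gata6* they were *Sde2* (r = 0.991), *Ttc9c* (r = 0.986) and *Polr3k* (r = 0.985), each lowest in SHF replicate 2 and CNC replicate 2. For *Hand2* they were *Sin3a* (r = 0.987), *Erlin2* (r = 0.984) and *Ddx18* (r = 0.983), with the same pair of lowest libraries. For *Mef2c* they were *Morf4l1* (r = 0.995), *Nme1* (r = 0.992) and *Sf3b5* (r = 0.987), each lowest in CNC replicate 1 and highest in SHF replicate 1. Between the factors, r was 0.931 for *Gata6* and *Hand2*, -0.365 for *Gata6* and *Mef2c* and -0.203 for *Hand2* and *Mef2c*.

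**Figure D5:**
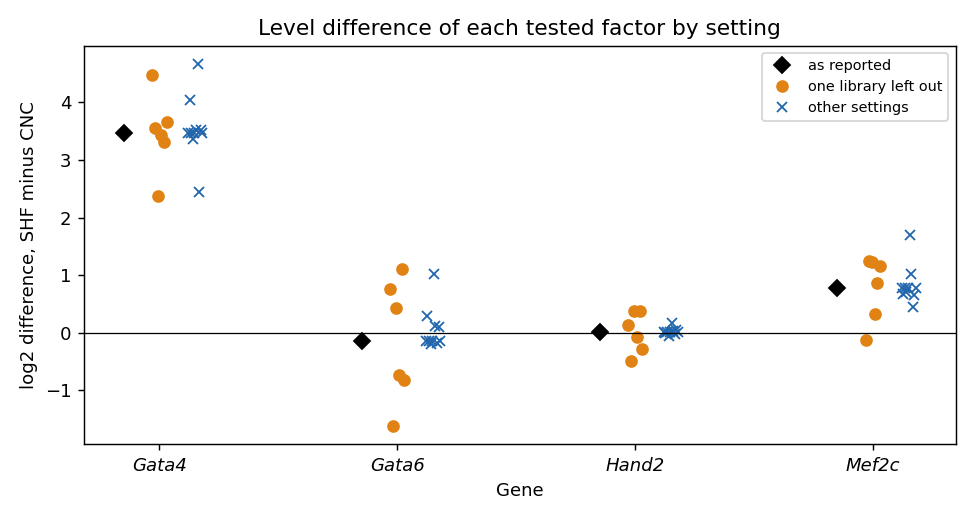
Difference in mean log2(TPM + 1), SHF minus CNC, of the 4 tested factors in the analysis as reported (black), with a library left out (orange) and under other settings (blue). *Gata4* stays above 0, between 2.38 and 4.67, whereas *Gata6*, *Hand2* and *Mef2c* fall on both sides of 0. The *Gata4* libraries do not overlap between lineages, so leaving a library out cannot change its sign.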

How the data were processed

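Bulk RNA sequencing was performed by the authors on sorted GFP+ cells, 3 SHF and 3 CNC libraries, with SmartSeq2 amplification and no molecular identifiers. Per the submitters' processing notes, reads were processed with bowtie2 and RSEM 1.2.25 on mm10, and the authors deposited a matrix of TPM. Which gene annotation they used is not given in the sources used here. Columns were matched to libraries by library code. TPM holds no depth, so no counting interval or detection limit could be given, and the p-values measure the spread between libraries of a group, which the study calls biological replicates.

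For the comparison of levels, limma 3.58.1 (eBayes with a trend, R 4.3.3) was run on log2(TPM + 1), with a filter of 1 TPM in at least 3 libraries, Benjamini-Hochberg adjustment over 10185 genes and a threshold of 0.05. Exact tests used scipy 1.17.1. The fit was also run on simulated log values drawn from normal distributions. These hold no excess of values at 0, so the run does not show how the fit handles such values. GENCODE M21 (GRCm38, equivalent to mm10) gave gene positions, and RefSeq (GRCm38.p6) gave promoter windows. The 8 factors, the lists of related genes and markers, and the tests were chosen with earlier results of these data known. Named genes are the 8 factors and, from each related list, genes past the threshold, the 3 with the highest mean TPM and the 2 with the largest difference without overlap, from each reported marker list the 2 with the highest mean TPM, and for each factor above 0 in all libraries the 3 most like it. All other genes named, among them *Gata1*, *Gata2*, *Mef2b*, *Foxf1*, *Dbh*, *Nppa*, *Nppb*, *Zfpm1*, *Zfpm2*, *Smyd1*, *Hopx*, *Tek*, *Xist* and the further markers listed at 0, were named after their values were seen. Results of 1 marker list are not reported here. Same-numbered libraries did not deviate together, with correlations of -0.011, -0.004 and -0.011 for replicates 1, 2 and 3. Alternatives were pseudocounts of 0.1 and 5, other filters, scalings and variance models, library weights, a replicate block, and each library left out.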

Additional observations from a re-analysis of the deposited data

How the results depend on the processing

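The difference of *Gata4* kept its direction under every alternative listed, from 2.38 without CNC replicate 3 to 4.67 with a pseudocount of 0.1, and its adjusted p in limma was 0.471 or more. Because the *Gata4* libraries did not overlap between lineages, leaving a library out or changing the pseudocount or filter could not reverse the direction. The number of factors past the threshold was 0 under every alternative, and the number of genes past it was 0 except for 1 with a pseudocount of 5. The difference of *Gata6* changed sign with library weights (0.30), a pseudocount of 0.1 (0.12), quantile normalization (0.10) and, chosen after seeing the data, with SHF replicate 1 as the one SHF library (1.03), and ran from -1.62 to 1.11 with a library left out. That of *Hand2* changed sign with library weights (-0.0048), median-of-ratios scaling (-0.056) and a pseudocount of 5 (-0.014), and ran from -0.49 to 0.39 with a library left out. With a library left out, that of *Mef2c* ran from -0.12 without CNC replicate 1 to 1.25, and its share of the MEF2 family, SHF minus CNC, from -3.34 to 12.6 percentage points. With SHF replicate 1 as the one SHF library the *Mef2c* difference was 1.71. The *Gata4* share of the GATA sum differed by 13.4 percentage points without CNC replicate 3 to 62.1 without CNC replicate 2. No direction or size is read from the median of the tested cardiac and endocardial targets, which the filter sets in part through *Myl3* and *Gja5*, and which went from 1.02 with no filter to 4.97 with a pseudocount of 0.1. That of the other heart field genes was -0.49 with a mean of at least 5 TPM as the filter and ran from -0.13 to 1.07 with a library left out. With a replicate block the differences were as without it, 3.47 for *Gata4* (adjusted p = 0.879 in limma), -0.15 for *Gata6*, 0.01 for *Hand2* and 0.79 for *Mef2c*, with 0 genes past the threshold, and the replicate block changed no other call. With a library left out, the median of the cofactors ran from -0.33 to 0.11 and was -0.34 with a mean of at least 5 TPM as the filter and -0.01 with library weights, and the median of the vascular and crest targets ran from 0.07 to 0.72. The cause of these shifts was not tested. Unknown depth and frequent values of 0 limit what these libraries can show.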

Other observations

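The 8 leukocyte markers, a cell type not described above, summed to 0 to 26.9 TPM in SHF and 7.96 to 84.7 TPM in CNC libraries, with *Lyz2*, the lysozyme of macrophages and neutrophils, at 14.72 TPM in SHF replicate 1, 58.85 TPM in CNC replicate 2 and 4.71 TPM in CNC replicate 3. *Cd68*, a lysosomal protein gene of macrophages, read 7.63, 0 and 26.9 TPM across the SHF libraries and 7.96, 0 and 2.6 TPM across the CNC libraries, and *Ptprc*, the pan-leukocyte CD45, was listed at 0 in all libraries.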
